A study of Mus musculus with 17 samples.

Results

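The genes described here are 9 genes of retinoic acid signalling, Rara, Rarb, Rarg, Rxra, Crabp1, Crabp2, Cyp26a1, Cyp26b1 and Aldh1a2, out of 18193 genes measured in 17 primary abdominal tumors of TH-MYCN mice. They were chosen by name for their place in the pathway, with earlier results of these data known, and each was represented by the probe set of highest mean among those annotated to it alone. TH-MYCN mice carry a MYCN transgene under the rat tyrosine hydroxylase promoter, which is active in cells of the neural crest lineage, and develop neuroblastoma, a tumor of the sympathetic nervous system. Per the study's methods the mice were hemizygous for the transgene on the 129X1/SvJ background. Total RNA of each whole tumor was labelled in 2 amplification cycles and hybridized to 1 Affymetrix mouse whole-genome array, so every value belongs to 1 tumor. All 17 tumors form 1 group with the same genotype, the labels give no sex, age, weight or treatment per tumor, and no normal tissue or control group was analysed here. The questions that this design allows are therefore how high each gene stood, how much it varied between tumors, and what it varied with.

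Retinoic acid is made from vitamin A by retinol and retinaldehyde dehydrogenases, carried in the cell by binding proteins, and broken down by cytochrome P450 enzymes of the CYP26 family. In the nucleus it binds retinoic acid receptors, which pair with retinoid X receptors on repeated DNA half-sites and switch between corepressors and coactivators. It is a classic inducer of differentiation in neuroblastoma cells and in the developing nervous system, and its receptor and degradation genes are among its own targets.

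The tumors carried their lineage markers. The sympathoadrenal list, of which 12 genes were used, had means from 11.29 to 11.84 on the log2 scale, and Chgb, a secretory granule protein, reached 14.50 ± 0.19 (SD, n = 17) and Th, the first enzyme of catecholamine synthesis, 13.09 ± 0.73. Values ran from 3.28 to 15.59 and array medians from 6.28 to 6.51, and pairs of arrays correlated at 0.964 to 0.994 over genes. A few tumors held RNA of other tissue. Averaged over 10 genes of skeletal muscle, tumor mad553 had 12.19, mad550 10.67 and mad549 9.82, with at most 6.80 elsewhere. Averaged over 6 genes of liver, mad562 had 9.99 and mad559 7.39, with at most 5.60 elsewhere. In bulk tumor RNA, fewer cells of a type and less RNA per cell cannot be told apart.

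A retinoic acid response element of the classic kind is a direct repeat of half-sites spaced by 5 bases. Such a repeat was found near an annotated start of 2 of the 8 members with a RefSeq promoter window, Rarb and Cyp26a1. Induction of both genes by retinoic acid through such elements is textbook knowledge, so the repeats are shown with 6 bases on either side, in capitals the half-sites. The window spans 250 bases before to 50 after each annotated start on GRCm38.p6, and the half-sites searched were AGGTCA, the same with G as first base (GGGTCA) or with TT in the middle (AGTTCA), and the form with both changes (GGTTCA), on either strand and with no overlap between the half-sites.
Rarb, chr14:16575507-16575535, minus strand of the chromosome: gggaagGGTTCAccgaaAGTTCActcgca
Cyp26a1, chr19:37697770-37697798, plus strand of the chromosome: taaagaTGAACTttgggTGAACTaatttg

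The Rarb window belongs to a start inside the annotated gene, not to the start farthest upstream, and its repeat lies 53 to 37 bases before that start and reads along the gene. The Cyp26a1 window also belongs to a start inside the annotated gene, whose first base is 37697738. Its repeat lies inside the annotated gene, 32 to 16 bases before that inner start. It reads on the opposite strand, so that its half-sites appear as TGAACT. Of all 32851 windows, 32 (0.0974%) held a repeat of this spacing, and by gene, 31 of 27025 (0.115%) did. The 8 members had 13 windows. Of 35 other retinoid genes with a window none held it. A spacing of 2 bases was found in no member and in 0.268% of all windows, and a spacing of 1 base in no member and in 0.222%. Of the other retinoid genes, Bco1 alone held a repeat with a spacing of 1 base, and none held one with 2. Crabp2 had no window. A match describes letters in the window and says nothing of binding in these tumors. The levels of Rarb and Cyp26a1 over the tumors correlated at r = 0.29.

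Of the receptor genes, Rxra, the retinoid X receptor that partners all 3 retinoic acid receptors (chr2:27676445-27763319, like all positions here on GRCm38.p6), ranged from 8.30 in mad551 through a median of 8.64 to 8.90 in mad550, with a mean of 8.66 ± 0.16 (SD, n = 17). It stood in the third quartile of its array in all 17 tumors and differed only 1.51-fold between the lowest and the highest. No tumor stood apart. Quartiles rank a probe set within its array, and since probe sets hybridize with different strength, a rank is no measure of molecules, and levels of different genes are not set against each other. Beside it, 2 further Rxra probe sets had means of 6.83 ± 0.15 and 4.70 ± 0.15 and correlated with the one used at -0.19 and -0.24 over the tumors, so the Rxra level depends on the probe set.

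Rara, the receptor gene that is broadly expressed in most tissues (chr11:98927800-98974942), ranged from 5.17 through a median of 5.78 to 5.99 in mad565, and was in the second quartile in all 17 tumors. Its low values formed a group of their own: mad556, mad562 and mad558 had 5.17, 5.18 and 5.19, and the next tumor, mad559, had 5.50. With the other 13 tumors between 5.50 and 5.90, Rara had a mean of 5.67 ± 0.26 (SD, n = 17).

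Rarb, the receptor that retinoic acid itself induces (chr14:16430839-17082331), varied the most of the 4 receptors. It ran from 5.56 in mad553 through a median of 6.40 to 7.06 in mad548, a 2.84-fold range, with a mean of 6.42 ± 0.39 (SD, n = 17). The highest tumors, mad548 at 7.06 and mad563 at 7.03, lay close together, and the lowest were mad553 and mad550, at 5.56 and 5.92, which were also the tumors with the highest skeletal muscle list. The part of muscle RNA in these low values was not tested. Mad549, the third tumor with muscle RNA, had 6.79, above the median.

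Rarg, the receptor prominent in skin and cartilage (chr15:102234938-102257522), ranged from 6.38 in mad558 through a median of 6.83 to 7.49 in mad562, and its mean was 6.88 ± 0.26 (SD, n = 17). Mad562, with the liver and the highest macrophage signal, stood above the second tumor, mad555, at 7.24. Rarg was in the third quartile in 13 tumors and in the second in 4. A further Rarg probe set had a mean of 5.88 ± 0.15 and correlated with the one used at 0.54.

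The binding protein genes ranked low within the arrays. Crabp1, a cytosolic carrier of retinoic acid (chr9:54764748-54773110), stayed in the lowest quartile in all 17 tumors, from 4.07 in mad555 through a median of 4.30 to 4.73 in mad560, with a mean of 4.34 ± 0.20 (SD, n = 17). Crabp2, the carrier that delivers retinoic acid to the receptors (chr3:87948693-87953372), was in the second quartile in all 17, with a mean of 5.73 ± 0.41 and a median of 5.67. At the top, mad563 and mad565 had 6.65 and 6.62, and the other 15 lay between 5.33 and 5.99.

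Among the degradation enzymes, Cyp26a1 (chr19:37697738-37701536), the enzyme most directly induced by retinoic acid, ranged from 6.02 in mad559 through a median of 6.45 to 7.06 in mad554, with a mean of 6.46 ± 0.24 (SD, n = 17). Mad554 stood above the second tumor, mad548, at 6.71. Cyp26b1 (chr6:84571414-84593908), which clears retinoic acid in tissues such as the embryonic limb and hindbrain, had the largest SD of the 9 genes. It ran from 5.12 in mad563 through a median of 6.30 to 6.84 in mad555, a 3.31-fold range, with a mean of 6.28 ± 0.49. Mad563 was alone at the low end, the second lowest being mad552 at 5.71, while mad564 at 6.84 and mad550 at 6.80 lay next to the top.

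Aldh1a2, the retinaldehyde dehydrogenase that makes retinoic acid in much of the embryo (chr9:71215789-71296243), ranked low within the arrays, in the first quartile in 12 tumors and the second in 5. It ranged from 4.47 in mad561 through a median of 4.83 to 5.32 in mad553, with a mean of 4.87 ± 0.26 (SD, n = 17). The upper end held mad553, mad554 and mad552 at 5.32, 5.31 and 5.25, and the next tumor, mad563, had 5.09. Mesothelium is a site where Aldh1a2 is known to be expressed, and the mean of 6 mesothelial genes was highest in mad554 (6.03), one of the tumors with the most Aldh1a2. The other tumors did not follow, since mad553, highest for Aldh1a2, had a mesothelial mean of 4.78, while mad559 and mad558, with 5.61 and 5.58, had Aldh1a2 at 4.69 and 4.83. Its part in the Aldh1a2 values was not tested.

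**Figure D1:**
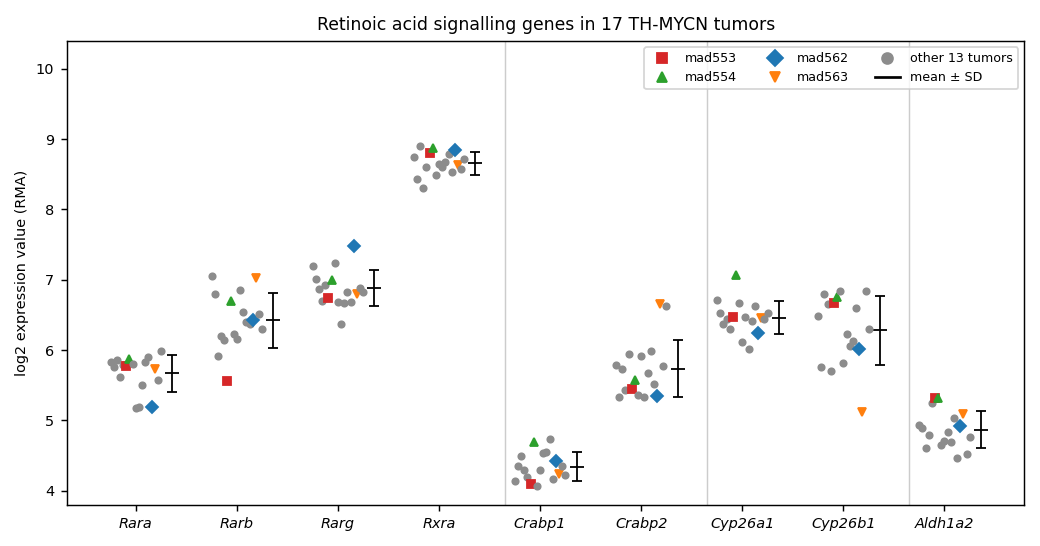
Log2 expression value of the 9 retinoic acid signalling genes (x axis) in each of the 17 tumors (points), with the mean and SD as bars, grouped as receptors, binding proteins, degradation enzymes and synthesis enzyme. Coloured points show that different tumors lie at the ends for different genes, such as mad563 at the bottom for Cyp26b1 (5.12) and at the top for Crabp2 (6.65).

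Set among all genes, the 9 members were mostly dim, as far as probe sets can be compared by rank. Rxra alone had a mean at or above the median of all gene means, 7.54, and no member reached a mean quartile of 3.5, a level that 33.441% of all genes reached. Crabp1 and Aldh1a2 had mean quartiles of 1 and 1.29, below the 1.5 that bounds the lowest 20.904% of genes. Because the spread of array values depends on level, each SD was ranked among genes in the same one of 20 bins of mean level. The rank was highest for Aldh1a2 (85.7% of such genes had a smaller SD), Crabp2 (85.2%), Cyp26b1 (83.5%) and Crabp1 (80.8%), followed by Rarb (75.9%) and Rara (64.8%). Rarg and Cyp26a1 lay at the middle, at 50.3% and 49.4%, and Rxra varied less than most genes of its level, at 18.2%. Thus 7 of 9 members lay above the middle of their level, with no test. Over 6 alternatives this count ran from 5 to 8, and Rarg changed sides of the middle in 4 of them. When the median absolute deviation replaced the SD, the ranks of Rara, Rarg and Cyp26a1 fell to 22.3%, 44.8% and 11%. That of Cyp26a1 was 64.1% with the mean of all probe sets of each gene.

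**Figure D2:**
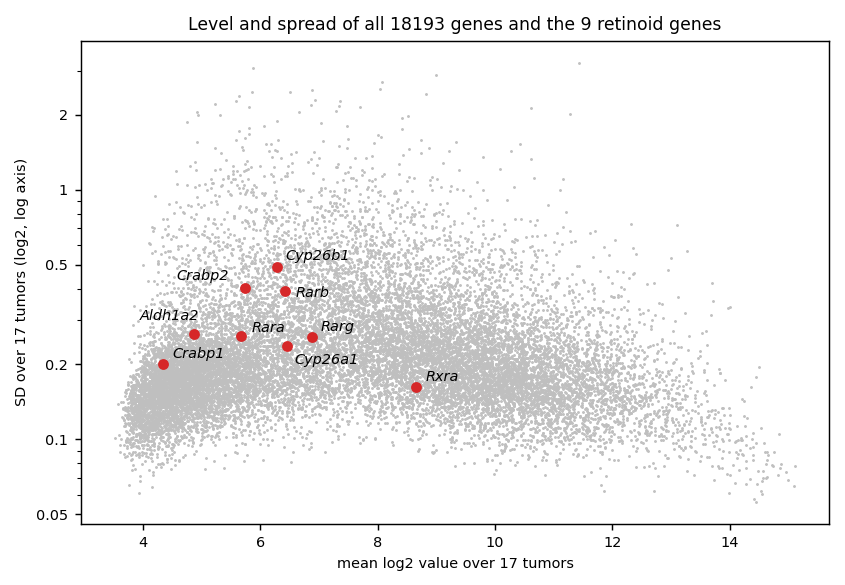
SD over the 17 tumors (y axis, log2 units on a log axis) against mean log2 value (x axis) for all 18193 genes (grey) and the 9 members (red). Rxra (8.66, SD 0.16) is the only member to the right of the middle of all gene means, and Cyp26b1 (6.28, SD 0.49) has the largest SD of the members.

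Whether the members moved with the makeup of the tumors was tested by regressing every gene on the mean of each of 8 marker lists, with limma, and each slope is the log2 change per SD of the list over the 17 tumors. No member passed. At an adjusted p under 0.05, 0 of 72 tests of a member against a list were called, and at an unadjusted p under 0.05, 8 (11.1%) were, against 11.9% of the same tests over all genes. The lists themselves did call genes: 5.19% of all genes for macrophages, 4.02% for neuronal maturation, 0.853% for proliferation, 0.649% for endothelium, 0.248% for the sympathoadrenal list, 0.132% for adipose tissue, 0.033% for fibroblasts and 0% for Schwann cells, with limma. At the unadjusted threshold the shares were 15.8% for macrophages, 20.9% for neuronal maturation, 12.2% for proliferation, 13.9% for endothelium, 12.3% for the sympathoadrenal list, 7.25% for adipose tissue, 4.92% for fibroblasts and 7.79% for Schwann cells. The 95% intervals of the members' slopes lay between -0.44 and 0.41, so changes of that size per SD were not excluded for the most variable members.

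The value nearest to the threshold was that of Rarg with macrophages. Rarg was higher where the 11 macrophage genes were higher, with a slope of 0.17 (SE 0.05, 95% interval 0.06 to 0.28, limma adjusted p = 0.0766) and r = 0.65 (permutation p = 0.00472) and rho = 0.53 (permutation p = 0.0314). The macrophage mean was lowest in mad558, at 8.22, and highest in mad562, the same tumors that had the lowest and the highest Rarg. Without mad562 the slope was 0.09 (adjusted p = 0.509). Without the 3 tumors with muscle RNA it was 0.22 (adjusted p = 0.0306), and it also passed without mad550 (adjusted p = 0.0492) or mad565 (adjusted p = 0.0495), both of which had a high macrophage list (9.49 and 9.40) and a Rarg near its median. The call for Rarg thus turned on which single tumor was included.

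**Figure D3:**
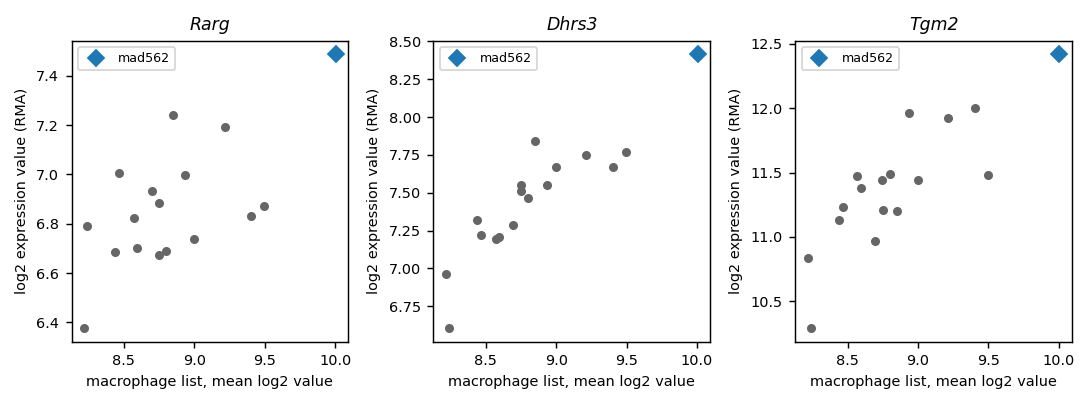
Log2 value of Rarg, Dhrs3 and Tgm2 (y axes, each with its own range) against the mean log2 value of the macrophage list (x axis), each point 1 tumor and the diamond mad562. Dhrs3 (r = 0.90) and Tgm2 (r = 0.83) rise along the whole range of the list, whereas the Rarg points (r = 0.65) are wider spread and mad562 is at the upper right in each.

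Cyp26a1 had the highest r of a member with a list. It was higher with the sympathoadrenal list, with a slope of 0.16 (SE 0.05, limma adjusted p = 0.181), r = 0.66 (permutation p = 0.00334) and rho = 0.48 (permutation p = 0.0513). Mad554 had the highest value of both, and without it the slope was 0.09 (adjusted p = 0.764). Mad554 also had the highest mesothelial and adrenal cortex means (6.03 and 5.69), whose part was not tested.

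Rarb had the largest slopes upward, 0.23 with the Schwann cell list (95% interval 0.07 to 0.39, limma adjusted p = 0.553, rho = 0.68) and 0.22 with proliferation (95% interval 0.05 to 0.39, adjusted p = 0.224). The proliferation list was lowest in mad553, at 11.91, the tumor with the most muscle RNA and the lowest Rarb. Without mad549, mad550 and mad553 the slope on proliferation was 0.02 (adjusted p = 0.940), while that on the Schwann cell list was 0.21 (adjusted p = 0.769). The Schwann cell list itself, of which 5 genes were used, spanned only 5.43 to 5.94.

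Cyp26b1 had the largest slope downward, -0.23 with proliferation (95% interval -0.44 to -0.01, limma adjusted p = 0.384). The remaining slopes with an unadjusted p under 0.05 were those of Rara with adipose tissue (-0.15, adjusted p = 0.548), Rxra with macrophages (0.09, adjusted p = 0.249) and Rarg with Schwann cells (0.13, adjusted p = 0.621). Crabp1, Crabp2 and Aldh1a2 had none. Over 26 alternatives of the processing the slope of Rxra on macrophages ran from 0.01 to 0.10, and further Rxra probe sets did not follow the one used. The slope of Rarg on Schwann cells ran from 0.03 to 0.15 over 25 alternatives. Neuronal maturation, the process that retinoic acid is known to induce in neuroblastoma cells, gave slopes between -0.15 for Cyp26b1 and 0.17 for Rarb, none of them past the unadjusted threshold of limma, which 20.9% of all genes passed. By rank, Cyp26a1 had rho = 0.50 with this list (permutation p = 0.041, not adjusted), with r = 0.39. Its r was 0.66 without mad560 and mad563, but 0.27 without mad554 and mad559, the tumors farthest from the Cyp26a1 median. Other rank p-values were also under 0.05, as for Cyp26b1 with macrophages (rho = 0.50, permutation p = 0.0426) and with the sympathoadrenal list (rho = 0.50, permutation p = 0.0445). No share over all genes was computed for these rank tests. The r of Cyp26b1 with neuronal maturation was -0.30 over all tumors and 0.29 without mad560 and mad563, so its direction depended on them.

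**Figure D4:**
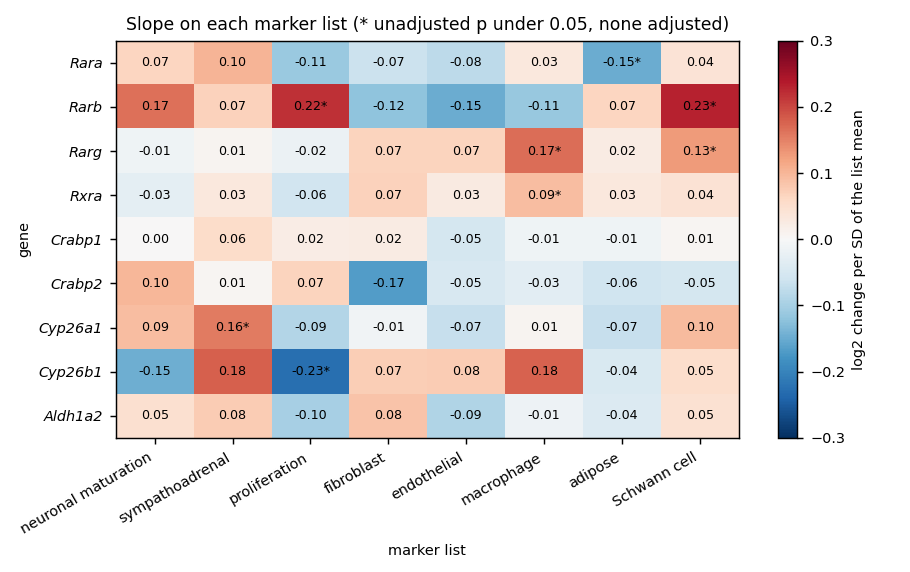
Slope of each of the 9 members (rows) on each of 8 marker lists (columns), as log2 change per SD of the list, with an asterisk at an unadjusted p under 0.05. The 8 asterisks lie in 6 genes, and no slope passed after adjustment over all genes, the lowest adjusted p being 0.0766 for Rarg on macrophages.

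The members were also set against each other. Over their 36 pairs, r ran from -0.47 for Crabp2 with Cyp26b1 to 0.56 for Rara with Cyp26a1, with a median of 0.09. In limma fits of every gene on each member, 0 of 72 ordered tests of a member on another passed, against 0.106% over all genes. At an unadjusted p under 0.05, 5 (6.94%) passed, against 9.31% over all genes. Both counts are near the shares of all genes, so they show nothing particular to the members. Probe sets of the same gene also disagreed, with r of -0.19 and -0.24 for Rxra and 0.54 for Rarg, and Crabp1 and Aldh1a2 had low signal. The part of such noise in the low r values was not tested. The lowest limma adjusted p of a member on another was 0.242. Genes called on a member at all were 0.934% of all genes for Rarg, 0.0055% for each of Rarb, Cyp26a1 and Cyp26b1, and 0% for the other 5. The 170 genes called on Rarg became 5 without mad562, 3 with arrays centred on their medians and 0 with ranks of Rarg. Without mad549, mad550 and mad553 they became 341 higher and 6 lower. The count for Rarb was not stable either. It was 98 higher and 6 lower among the 9097 genes at or above the median level, 47 higher and 3 lower without mad556, and 0 with ranks of Rarb. At the unadjusted threshold the shares of all genes were 8.25% for Rara, 17.8% for Rarb, 12.5% for Rarg, 7.88% for Rxra, 3.99% for Crabp1, 5.84% for Crabp2, 15% for Cyp26a1, 7.92% for Cyp26b1 and 4.69% for Aldh1a2. The pair of Rara and Cyp26a1 was the only one of the 36 with a permutation p of r under 0.05 (r = 0.56, p = 0.0197, rho = 0.60, p = 0.0117). That is no more than this unadjusted threshold allows among 36 pairs. Its r was 0.39 without the 2 tumors farthest from the Rara median and 0.61 without mad554 and mad559, the farthest for Cyp26a1. Crabp2 and Cyp26b1 were opposed in mad563, highest for one and lowest for the other.

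The genes whose pattern over the 17 tumors was most like each member's were sought among the 9097 genes at or above the median level, by Pearson's r, and given with no test. For the receptors they were AY036118, Lztfl1 and Fcgr2b with Rara (0.75, 0.75 and 0.74), Adat2, Polr2b and Gfus with Rarb (0.89, 0.87 and 0.86), Coa5, Serf2 and Hk3 with Rarg (0.85, 0.85 and 0.84), and Cenpx, Rab31 and Dstyk with Rxra (0.82, 0.78 and 0.77). For the binding proteins they were Tdp1, Smc1a and Rnf216 with Crabp1 (0.85, 0.76 and 0.73) and Zfp9, Jun and Socs5 with Crabp2 (0.80, 0.77 and 0.75). For the enzymes they were Mfsd6, Gskip and Fam160b1 with Cyp26a1 (0.83, 0.82 and 0.82), Pofut2, Sdc1 and Rgs5 with Cyp26b1 (0.89, 0.80 and 0.80), and Bptf, Cuedc1 and Fam222b with Aldh1a2 (0.84, 0.79 and 0.76). Among the genes listed here, none appeared for more than 1 member, and none was itself on the retinoid list. So few genes were listed per member, out of 9097, that little overlap could arise in any case. No expected share was computed, and no conclusion on shared patterns is drawn from the absence of overlap.

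Around the 9 members, 43 further retinoid genes were analysed. Of the 43, 13 reached a mean quartile of at least 3.5, and 5 stayed at or under 1.5, beside 33.441% and 20.904% of all genes. By role, the genes at the top were 2 of 5 receptors, 1 of 5 uptake and binding genes, 2 of 9 synthesis genes, 4 of 7 corepressors and coactivators and 4 of 15 targets. Fabp5, a fatty acid binding protein that can also carry retinoic acid, was 14.28 ± 0.07 (SD, n = 17), in the top quartile in all 17 tumors. Rxrb, a further retinoid X receptor, was 10.82 ± 0.10, from 10.70 to 11.05. Lrat, which stores retinol as esters, had a mean of 4.15 and Aldh1a3, a retinaldehyde dehydrogenase beside Aldh1a2, 5.23.

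Some of these genes varied far more than any member. Meis2, a homeobox gene induced by retinoic acid, was 5.21 in mad548, with a median of 10.69 and a highest value of 11.79, and all 4 of its probe sets were lowest in mad548. Nr2f1, an orphan receptor that binds retinoid response elements, spread from 5.28 in mad552 to 9.77 in mad556, with a mean of 7.80 ± 1.35 (SD, n = 17). Its values lay in 2 clusters, 5 tumors at 9.18 or above and 12 at 7.90 or below. Aldh1a1, a retinaldehyde dehydrogenase, ran from 6.05 in mad563 to 9.36 in mad553, the tumor with the most muscle RNA. Next came mad562 at 8.91 and mad559 at 8.20, the tumors with the highest liver list. The part of other tissue in these values was not tested.

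Adh1, an alcohol dehydrogenase that oxidizes retinol, and Rbp4, the retinol carrier of plasma, both had their highest value in the tumor with the liver genes. Adh1 was 9.84 in mad562 and at most 7.74 in the others. Rbp4 was 9.88 in mad562, 7.33 in mad559 and lower in the rest, the same first and second tumors as for the liver list (9.99 and 7.39). The part of liver RNA in them was not tested.

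**Figure D5:**
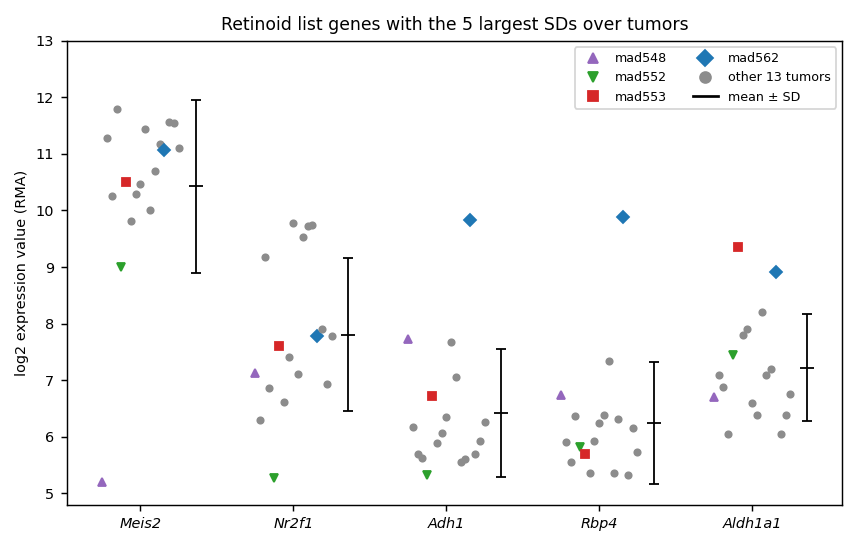
Log2 value in each tumor (points) with mean and SD (bars) of the retinoid list genes with the 5 largest SDs over the 17 tumors. Mad548 is alone at the bottom for Meis2 (5.21), mad562 alone at the top for Adh1 (9.84) and Rbp4 (9.88), and Nr2f1 has 5 tumors at 9.18 or above and 12 at 7.90 or below.

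Of these 43 genes, 5 of the 344 tests on the 8 lists passed, 4 of them with macrophages, beside 1.39% of the same tests over all genes. A share of 5 in 344 is near that background, and no difference between the members and the other genes was tested. Dhrs3, a retinaldehyde reductase that retinoic acid induces and that limits its synthesis, rose with the macrophage list by 0.36 per SD (95% interval 0.26 to 0.46, limma adjusted p = 5.463e-05, r = 0.90, rho = 0.91), from 6.61 in mad563 to 8.41 in mad562. Tgm2, a transglutaminase that is a long known target of retinoic acid and abundant in macrophages, rose by 0.41 (95% interval 0.27 to 0.55, adjusted p = 0.0003385, r = 0.83, rho = 0.79), from 10.29 in mad563 to 12.42 in mad562. Both calls held without mad562, Dhrs3 with 0.28 (adjusted p = 0.005058) and Tgm2 with 0.33 (adjusted p = 0.01423). The background for macrophages was 4.73% of all genes higher and 0.456% lower.

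The other calls were lost when 1 tumor was left out and also under other settings. In all, this was so in 4 of 25 alternatives for Rarres1, 9 of 25 for Stra6 and 8 of 26 for Adh5. These totals hold the same fit without mad562 both as a change of its own and among the tumors left out singly. Rarres1, a retinoid-induced gene, rose with macrophages by 0.43 (limma adjusted p = 0.008433, r = 0.72, rho = 0.40). But it was 6.76 in mad562 and at most 5.12 elsewhere, and without mad562 the slope was 0.10 (adjusted p = 0.432). Stra6, the receptor that takes retinol into cells, fell with macrophages by 0.12 (adjusted p = 0.0358), and without mad562 had a slope of -0.08 (adjusted p = 0.291). Adh5, an alcohol dehydrogenase found in all tissues, rose with neuronal maturation by 0.11 (adjusted p = 0.0324, background 3.45% of all genes), and without mad563, which was highest for both, had 0.04 (adjusted p = 0.464).

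In the fits on the members themselves, 1 of 387 tests of the other retinoid genes passed, beside 0.106% of the same tests over all genes. Hoxb4, a homeobox gene induced by retinoic acid in the hindbrain, rose with Rarg by 0.22 per SD of Rarg (limma adjusted p = 0.0464, r = 0.77, rho = 0.64), where 0.918% of all genes did so. Its slope was 0.15 (adjusted p = 0.21) without mad562, the tumor with the highest value of both. The call was lost in 19 of 25 alternatives, where the fit without mad562 again enters in both forms.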

How the data were processed

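RNA of 17 TH-MYCN tumors, 1 array each and 1 group by the labels, was measured on Affymetrix mouse whole-genome arrays from 100 ng of total RNA. The deposited values are log2 expression values per probe set, which the authors computed by RMA, that is with background correction, quantile normalization and a summary over the probes of a set. The labels name Partek 6.4 beside RMA, whereas the study's methods also name MAS5. The values fit RMA log2, and were used as deposited. Quantile normalization evens out differences in total signal, so each value is relative to its array. The medians of the deposited arrays still ran from 6.28 to 6.51, and counts with arrays centred on their medians are given below. The number of arrays limits the precision.

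Of 45101 probe sets, 64 controls were left out, 34945 had 1 symbol in the platform annotation, 932 several and 9160 none. A gene took its single-gene probe set of highest mean (18193 genes). Percentiles and quartiles (limits at 25%, 50% and 75%) were taken within each array over single-gene probe sets. limma 3.58.1 in R 4.3.3 (lmFit, eBayes with trend) regressed every gene on a list mean or a member's level scaled to SD 1, with Benjamini-Hochberg adjustment over all genes, list genes left out. The threshold was an adjusted p under 0.05. Pearson and Spearman p-values came from 100000 two-sided permutations (seed 1). The fit was tested on simulated data. Named genes were the 9 members, retinoid genes that passed or had the 5 largest SDs, the 3 genes most like each member, and genes of lists where their level is given. Fabp5, Rxrb, Lrat and Aldh1a3 were named after their values were seen. The members, lists and rule were chosen with earlier results of these data known. Promoter sequences and positions are RefSeq's (GRCm38.p6). The arrays do not say whether tumors shared litters, and the p-values treat the tumors as independent. Some genes of the lists are not reported here.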

Additional observations from a re-analysis of the deposited data

How the results depend on the processing

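No paired analysis was possible because the tumors form 1 group with 1 array each. The counts were recomputed with 10 kinds of change: the mean of all probe sets, no _s_at or _x_at probe sets, arrays centred on their medians, only genes at or above the median level, eBayes without trend, ranks of the covariate, and tumors left out. The slopes recomputed (the 8 of members on lists with an unadjusted p under 0.05, Cyp26a1 on Rara, and those of other retinoid genes that passed) kept their direction. Some shrank, such as Rxra on macrophages to 0.01 and Rarb on proliferation to 0.02. The sign of Cyp26b1 with neuronal maturation, not called, turned without mad560 and mad563. The count of members above the middle of all genes was 1 in all alternatives. That above the middle spread of their level, 7, ran from 5 to 8, within 1.5 times its value. The count of members called on members was 0 in all. Calls of members on marker lists were 0, and 1 without mad549, mad550 and mad553, with a range of 0 to 1 when each tumor was left out. Calls of other retinoid genes on lists were 5, and 9 with centred arrays, 2 among genes at or above the median level, 3 with ranks, 3 without the 2 farthest tumors, and 3 to 5 with each tumor left out (3 without mad563). Their calls on members were 1, and 0 with the mean of all probe sets, with centred arrays, with ranks, without mad562 or without the 2 farthest tumors, 2 without mad549, mad550 and mad553, and 0 to 2 with each tumor left out. The causes were not tested. Dhrs3 and Tgm2 passed on macrophages in all 25 and 26 alternatives run, which hold the fit without mad562 in both forms. The mean of all probe sets gave Rarg 6.38 and Rxra 6.73. The filter on level left Rxra alone of the members. Low signal limits what could be seen for Crabp1 and Aldh1a2.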
